A study of Mus musculus with 4 samples.

Results

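The IL-1, TNF and NF-kB response genes were 10 genes chosen by symbol: Il1a, Il1b, Il1rn, Il6, Tnf, Tnfsf9, Tnfrsf1a, Tnfrsf1b, Nfkbia and Ptgs2. Each symbol matched 1 of the 31053 features in the deposited count tables. The tables came from droplet single-cell RNA-seq of the hemisphere on the operated side of the brain in male C57/BL6 mice, 8 weeks old in the labels. The sham library came from mice that had the surgery without the occlusion, and 3 libraries came from mice sampled 1, 3 and 7 days after transient middle cerebral artery occlusion (tMCAO), in which a monofilament blocks the artery and is then withdrawn. The design text of the series places the sham sample on day 7, and the number of mice behind a library is not given in the sources used here. Each group held 1 library, so no difference below was tested. Intervals are exact 95% intervals, which cover counting error only and not the spread between animals. Counts are of unique molecular identifiers (UMIs), 1 for each captured RNA molecule. A level is given in CPM, the UMIs of a gene summed over the cells of a class as a share of all UMIs of those cells, on the usual CPM scale. A gene was called higher or lower where its CPM ratio to sham passed 2-fold and at least 20 UMIs were counted over both libraries.

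IL-1 alpha and IL-1 beta, encoded by Il1a and Il1b, signal through the same IL-1 receptor, and the product of Il1rn occupies that receptor without starting a signal. TNF acts through the receptors encoded by Tnfrsf1a, present on most cell types, and Tnfrsf1b, found mainly on immune and endothelial cells, while Tnfsf9 encodes the ligand of 4-1BB, a costimulatory receptor of T cells. Both cytokine families release NF-kB from its inhibitors, and Nfkbia, which encodes the inhibitor IkB alpha, is itself switched on by NF-kB. Il6 encodes the cytokine IL-6 and Ptgs2 encodes the cyclooxygenase that is induced in inflammation and starts prostaglandin synthesis. In brain, resident microglia, border macrophages and incoming neutrophils and monocytes are known sources of IL-1 and TNF after ischemia, and vessel cells are known to respond to them.

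The genes lay on 7 chromosomes of the mouse build GRCm38, as annotated by GENCODE. Il1a at chr2:129299610-129309972 and Il1b at chr2:129364570-129371139 were neighbours on the minus strand, and Il1rn lay on the plus strand of the same chromosome at chr2:24336853-24351494. Tnf at chr17:35199381-35202007 on the minus strand and Tnfsf9 at chr17:57105325-57107757 on the plus strand shared chromosome 17. RefSeq start sites of GRCm38.p6 gave promoters for 9 of the 10 genes. The 250 bases before the start are printed for the 3 cytokine genes whose window held the letters TATAAA and for the 2 genes whose window held a match to the NF-kB consensus, to show where these matches lie. Capitals mark the match, both strands were searched, and the sequences run 5′ to 3′ on the strand of the gene.
Il1a: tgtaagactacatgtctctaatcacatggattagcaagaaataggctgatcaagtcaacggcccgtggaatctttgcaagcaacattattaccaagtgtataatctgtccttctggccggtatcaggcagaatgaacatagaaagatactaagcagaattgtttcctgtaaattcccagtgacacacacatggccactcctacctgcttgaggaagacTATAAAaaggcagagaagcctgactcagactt
Il1b: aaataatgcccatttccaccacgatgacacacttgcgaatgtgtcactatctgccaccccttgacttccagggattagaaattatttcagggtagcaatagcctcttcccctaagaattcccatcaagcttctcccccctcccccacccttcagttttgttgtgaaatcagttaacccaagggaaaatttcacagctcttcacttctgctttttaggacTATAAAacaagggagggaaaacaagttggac
Tnf: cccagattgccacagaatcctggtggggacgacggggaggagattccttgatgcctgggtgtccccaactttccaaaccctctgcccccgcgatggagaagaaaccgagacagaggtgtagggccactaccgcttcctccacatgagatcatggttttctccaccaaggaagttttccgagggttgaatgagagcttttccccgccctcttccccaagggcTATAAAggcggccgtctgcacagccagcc
Il6: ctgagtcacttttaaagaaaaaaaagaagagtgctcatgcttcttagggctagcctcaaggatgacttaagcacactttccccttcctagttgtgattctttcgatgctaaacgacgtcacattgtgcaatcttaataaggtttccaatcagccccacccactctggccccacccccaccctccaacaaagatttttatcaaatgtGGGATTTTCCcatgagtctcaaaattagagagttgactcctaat
Nfkbia: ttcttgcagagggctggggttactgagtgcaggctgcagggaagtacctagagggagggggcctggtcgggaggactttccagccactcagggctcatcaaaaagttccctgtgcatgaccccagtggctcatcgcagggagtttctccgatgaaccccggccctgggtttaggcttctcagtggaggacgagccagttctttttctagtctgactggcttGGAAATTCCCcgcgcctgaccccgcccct
These windows were chr2:129309973-129310222, chr2:129371140-129371389, chr17:35202008-35202257, chr5:30012864-30013113 and chr12:55492648-55492897, in that order. TATAAA began 32 bases before the start of Il1a, 31 before that of Il1b and 29 before that of Tnf. The NF-kB consensus match began 44 bases before the start of Il6 and 29 before that of Nfkbia. Of 32851 RefSeq promoters of the same length, 12.4% held TATAAA and 7.25% held the NF-kB consensus. The AP-1 letters TGAGTCA, also searched, were found before a start of Il1a, Il1rn and Il6 and in 4.46% of the promoters. A match is a description of the letters only.

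The libraries held 11744 cells for sham and 17780, 11983 and 17922 for days 1, 3 and 7, of which 7562, 13376, 9378 and 14044 had 200 to 3000 genes and at most 10% mitochondrial UMIs. These cells carried 31155145 to 45258075 UMIs a library, with a median of 2507.5 to 3731.5 UMIs a cell. Between 33 and 88 cell barcodes were shared by any pair of libraries, at most 0.562% of the smaller one. Cell classes were rebuilt by clustering without the members among the clustering genes and were named from marker genes, so each is called "-like". Clusters and myeloid subclusters that met no naming rule formed an unnamed class. It had 723, 638, 664 and 1604 cells for sham and days 1, 3 and 7, up to 11.4% of a library. The 5 endothelial markers summed to 14507, 14908, 20249 and 14949 CPM in it. The unnamed class was counted in the shares below but is not compared with sham. The microglia-like class held 162, 667, 427 and 380 cells, 3.69% of all cells, and its summed level of 7 microglia markers was 12449, 7362, 12544 and 10370 CPM for sham and days 1, 3 and 7. The choroid plexus-like and ependymal-like classes were left out of the comparisons of members, because on day 3 only 16.3% and 11.4% of their cells had the same class when called from their own markers, and erythrocyte-like cells were left out because 28.1% to 56.4% did. Fibroblast-like cells were kept although 49.5% to 52.9% did. B-like and monocyte-like cells of all 4 libraries numbered under 50, as did neutrophil-like and oligodendrocyte progenitor-like cells of sham and day 7. So did border macrophage-like cells of days 3 and 7 and T or NK-like cells of sham and day 1. No ratio to sham was taken from any of these.

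Pooled over the 4 libraries, 9 of the 10 members were counted mostly in myeloid cells or mostly in vessel cells, and Tnfsf9 was spread over microglia-like, oligodendrocyte-like and vessel cells. Microglia-like cells held 91.2% (90.4 to 91.9) of the 5281 Il1a UMIs and 81.6% (80.4 to 82.8) of the 4057 Tnf UMIs, while holding 3.61% of all UMIs. On day 1 the unnamed class held 122 of 3071 Il1a and 69 of 2729 Tnf UMIs, and border macrophage-like cells 85 and 111. The 6931 Il1b UMIs were divided between microglia-like cells, with 42.1% (41.0 to 43.3), and neutrophil-like cells, with 40.5% (39.3 to 41.7). Il1b was therefore the IL-1 ligand with a second main source, a class that made up 0.327% of the cells. Il1rn had 115 UMIs in all, and neutrophil-like cells held 49.6% (40.1 to 59) of them. By library they held 10 of 11 in sham, 17 of 59 on day 1, 22 of 27 on day 3 and 8 of 18 on day 7. On day 1 microglia-like cells held more, with 21. Of the Tnfsf9 UMIs, microglia-like cells held 41.0%, oligodendrocyte-like cells 29.9% and vascular smooth muscle-like cells 12.1%. This order came from day 1, which gave 502 of the 553 microglia UMIs of Tnfsf9. Endothelial-like cells, 49.8% of the cells with 42.3% of all UMIs, held 82.2% (81.2 to 83.1) of the Ptgs2, 69.4% of the Nfkbia, 63.9% of the Tnfrsf1b and 56.1% of the Tnfrsf1a UMIs. Il6 had 184 UMIs, of which vascular smooth muscle-like cells held 48.4% (41.0 to 55.8), pericyte-like cells 29.3% and microglia-like cells 13.6%.

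**Figure D1:**
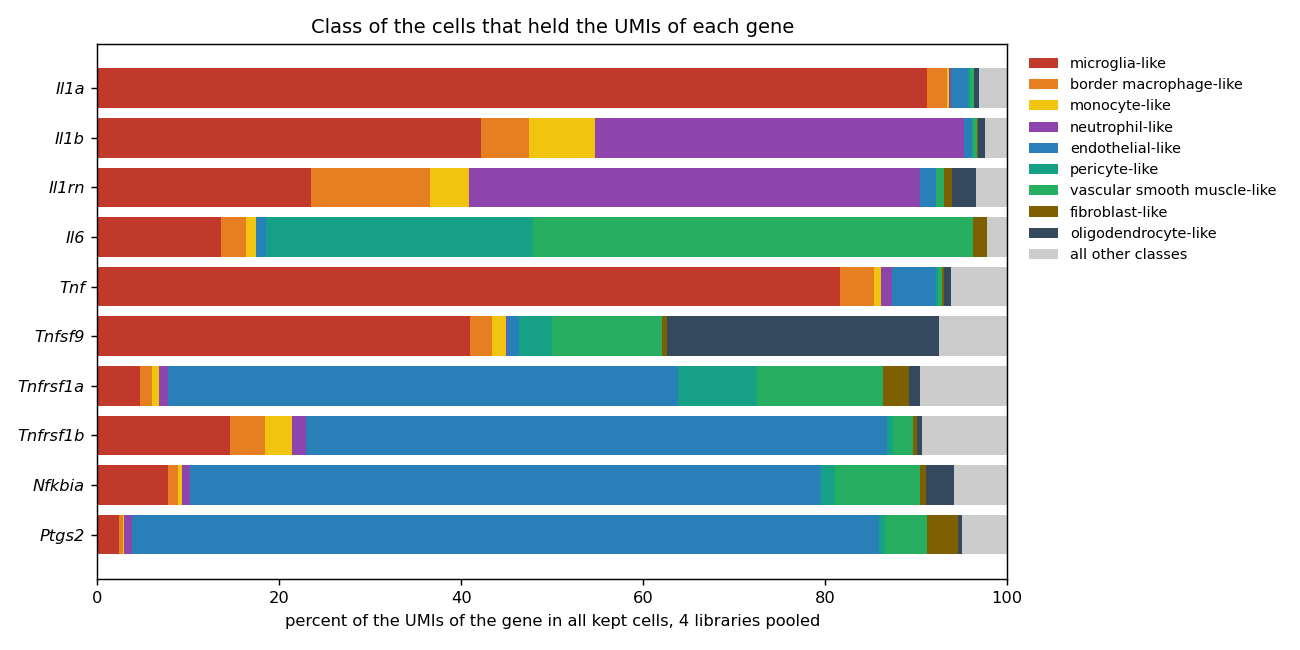
Share of each member's UMIs (percent, 4 libraries pooled) by cell class, 1 stacked bar a gene. Il1a and Tnf were mostly in microglia-like cells, Il1b was divided between microglia-like and neutrophil-like cells, and Ptgs2, Nfkbia and the TNF receptors were mostly in endothelial-like cells.

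**Figure D2:**
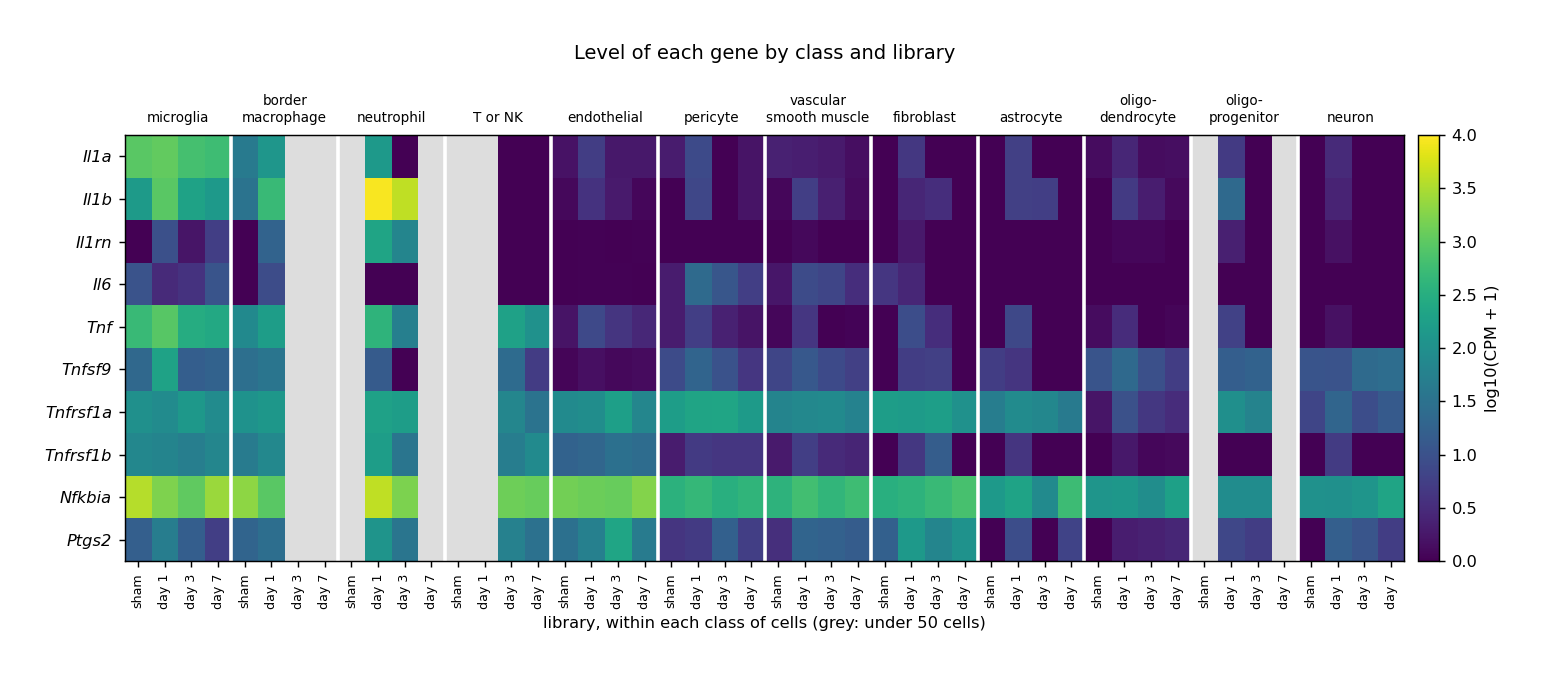
Level of each member (log10 of CPM + 1) in the compared cell classes, by library, where a class held at least 50 cells. Among these, Il1b was highest in neutrophil-like cells, Il1a and Tnf in microglia-like cells, and Ptgs2 in endothelial-like cells of day 3, at 221 CPM.

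In microglia-like cells the day 1 library held the highest levels of Il1b, Tnf, Tnfsf9 and Ptgs2, and the level of Nfkbia was lower than in sham in all 3 tMCAO libraries. On day 1, 9 members reached 20 UMIs, 3 of them (Il1b, Tnfsf9 and Ptgs2) were higher than in sham and 1 (Nfkbia) was lower, beside 11.4% of all 9174 genes called higher and 12.2% called lower. Their median log2 ratio, against -0.13 over all genes, was at least 0.54, the bound of Il1rn with its 0 sham UMIs at the floor, and at most 0.86, the value of Tnf. On day 3 no member of 8 was higher and 1, Nfkbia, was lower, beside 7.33% and 4.48% of all genes, and the members' median was -0.47 against 0.04. On day 7 none of 7 members passed 2-fold in either direction, beside 8.34% of genes higher and 2.47% lower, although Tnf was lower under 2 of the alternatives.

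Among the IL-1 ligands, Il1a and Il1b differed in their course. Il1a stood at 932 CPM in sham, 1089 on day 1, 670 on day 3 and 575 on day 7. The ratios to sham were 1.17 (1.06 to 1.29), 0.719 (0.643 to 0.803) and 0.617 (0.547 to 0.695), so Il1a was within 2-fold of sham throughout. With cells of up to 6000 genes admitted, the day 1 ratio of Il1a was 0.907. Il1b stood at 148 CPM in sham, from 77 UMIs, 959 on day 1, from 2409, 197 on day 3, from 280, and 137 on day 7, from 154. The day 1 level of Il1b was 6.48 times that of sham (5.16 to 8.24), and the day 3 and day 7 ratios were 1.33 (1.03 to 1.74) and 0.927 (0.701 to 1.24). The day 3 level of Il1b was 0.206 (0.181 to 0.233) times that of day 1, and that of Il1a was 0.615 (0.571 to 0.663) times. In counts, there were 0.159 UMIs of Il1b for each UMI of Il1a in sham, 0.881 on day 1, 0.295 on day 3 and 0.239 on day 7, a ratio of tags at the 3′ end that was highest on day 1.

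The receptor antagonist gene Il1rn was near the limit of detection in microglia-like cells. It had 0 UMIs in sham, 21 on day 1, 1 on day 3 and 5 on day 7, and its day 1 level of 8.36 CPM was at least 1.45-fold higher than the level that 3 UMIs would give in sham. On day 1 microglia-like cells had 0.00872 (0.00539 to 0.0134) Il1rn UMIs for each UMI of Il1b.

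Of the TNF ligands, Tnf was measured at 511 CPM in sham, 925 on day 1, 301 on day 3 and 263 on day 7. The ratios were 1.81 (1.59 to 2.06), 0.589 (0.504 to 0.689) and 0.514 (0.434 to 0.609), short of 2-fold in each case. The day 7 ratio of Tnf passed 2-fold with at most 5% mitochondrial UMIs, at 0.483, and without the 5% of cells with the highest Scrublet score, at 0.495. Admitting cells of up to 6000 genes turned the day 3 ratio of Tnf to 1.08, calling each cell from its own markers moved its day 1 ratio to 2.14, and the mean of per-cell CPM moved that ratio to 2.69. Tnfsf9 had 11 UMIs in sham, 502 on day 1, 21 on day 3 and 19 on day 7, or 21.1, 200, 14.8 and 16.9 CPM. The day 1 level of Tnfsf9 was 9.45 times that of sham (5.24 to 19.1), the largest ratio among the members in these cells that did not start from 0 UMIs. It was 14.5 as the mean of per-cell CPM. With cells of up to 6000 genes admitted, the day 3 and day 7 ratios of Tnfsf9 turned from 0.70 and 0.80 to 1.5 and 1.63.

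The TNF receptors stayed nearer to their sham levels. Tnfrsf1a stood at 100, 84.4, 137 and 83.8 CPM for sham and days 1, 3 and 7, and Tnfrsf1b at 69.2, 63.7, 50.1 and 67.7 CPM. Their ratios to sham lay between 0.723 and 1.37. The interval included 1 for every value but that of Tnfrsf1a on day 3, whose lower bound was just above it.

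Nfkbia was the member with the most UMIs in microglia-like cells. Its level was 3574 CPM in sham, 1698 on day 1, 1065 on day 3 and 2507 on day 7. The ratios were 0.475 (0.450 to 0.502), 0.298 (0.278 to 0.319) and 0.701 (0.661 to 0.744), so the day 1 value lay at the edge of 2-fold and the day 3 value well past it. Leaving mitochondrial and ribosomal protein genes and Gm42418 out of the total gave 0.520 for day 1, and the mean of per-cell CPM gave 0.625. Immediate-early genes, which cell preparation can raise, were also lower in sum than in sham. The sum of 8 of them was 28501 CPM in sham, 8023 on day 1, 17316 on day 3 and 23782 on day 7. Of these 8, 7 were called lower on day 1 and 0 on days 3 and 7. Their sum was thus lowest on day 1, while Nfkbia was lowest on day 3. The part of the immediate-early genes in the Nfkbia values was not tested.

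Ptgs2 had 8, 121, 21 and 5 UMIs in microglia-like cells, or 15.4, 48.2, 14.8 and 4.46 CPM for sham and days 1, 3 and 7. The day 1 ratio was 3.13 (1.54 to 7.42), and 1.99 as the mean of per-cell CPM. With cells of up to 6000 genes the day 3 ratio of Ptgs2 turned from 0.963 to 1.65 and the day 7 ratio from 0.290 to 1.35. Il6 had 5, 5, 4 and 11 UMIs and gave no comparison at this depth.

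Markers of other classes were also measured in the microglia-like cells. The summed level of 6 neutrophil markers was 129, 383, 661 and 206 CPM for sham and days 1, 3 and 7, with Mmp8 at 0 in sham, day 1 and day 7, and the 5 endothelial markers summed to 3349, 2302, 2982 and 4169 CPM. The part of these cells or their RNA in the levels above was not tested. Subtracting the level of oligodendrocyte-like cells left all 27 microglia ratios within their intervals, but for Tnfsf9, of which these cells held 29.9% of the UMIs, their level is no background.

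**Figure D3:**
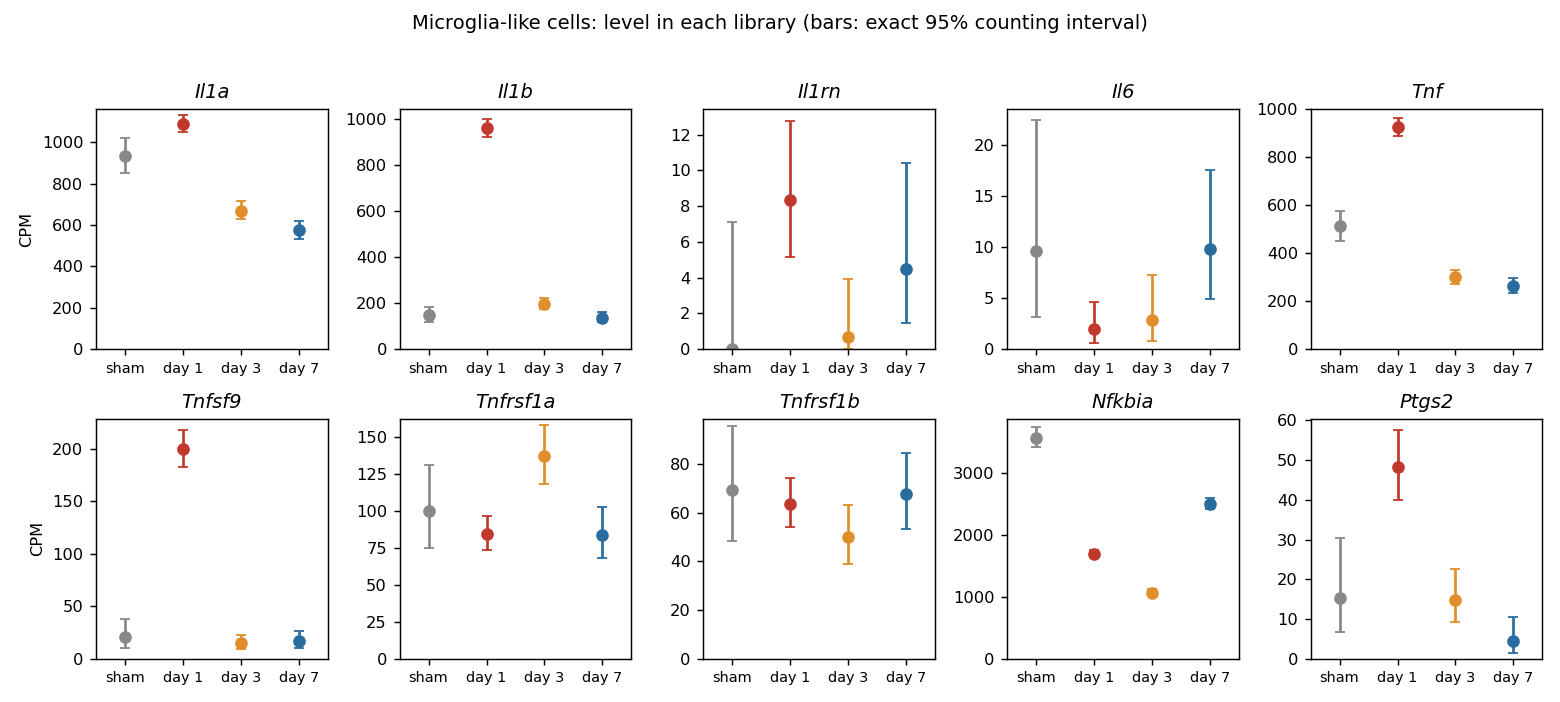
Level of each member in microglia-like cells (CPM) by library, with exact 95% counting intervals. Il1b, Tnf, Tnfsf9 and Ptgs2 were highest on day 1, Il1a stayed between 575 and 1089 CPM, and Nfkbia was lowest on day 3 at 1065 CPM.

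The share of microglia-like cells with a UMI was also highest on day 1 for Il1b, Tnf and Tnfsf9. After thinning each cell to 1000 UMIs, which left 120, 525, 302 and 274 cells and dropped 42, 142, 125 and 106 shallower ones, Il1b was found in 6.67% of sham cells, 25.5% of day 1 cells, 5.30% of day 3 cells and 4.74% of day 7 cells. The shares without thinning were 8.64%, 28.3%, 6.56% and 6.58%. Tnf was found in 16.7%, 29.7%, 10.9% and 13.5% of the thinned cells, and Tnfsf9 in 0%, 10.9%, 0.662% and 1.46%. Il1a was found in 33.3%, 29.0%, 21.5% and 23.7%, and the sham interval (25.0 to 42.5) overlapped that of day 1, while the unthinned shares were 37.0%, 38.2%, 28.8% and 33.4%. Thinning to 500 UMIs turned the order of sham and day 1 for Il1a, at 16% and 21.4%, and left day 1 the highest for Il1b, Tnf and Tnfsf9, at 15.1%, 19.9% and 6.0%. Nfkbia was found in 66.7%, 48.8%, 39.4% and 63.9%. Its unthinned shares were 58.0%, 59.1%, 40.5% and 66.6%, so only the day 3 share was below that of sham both with and without thinning by a wide margin. In thinned oligodendrocyte-like cells Nfkbia was found in 9.0% to 16.3% and every other member in at most 2.69%.

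**Figure D4:**
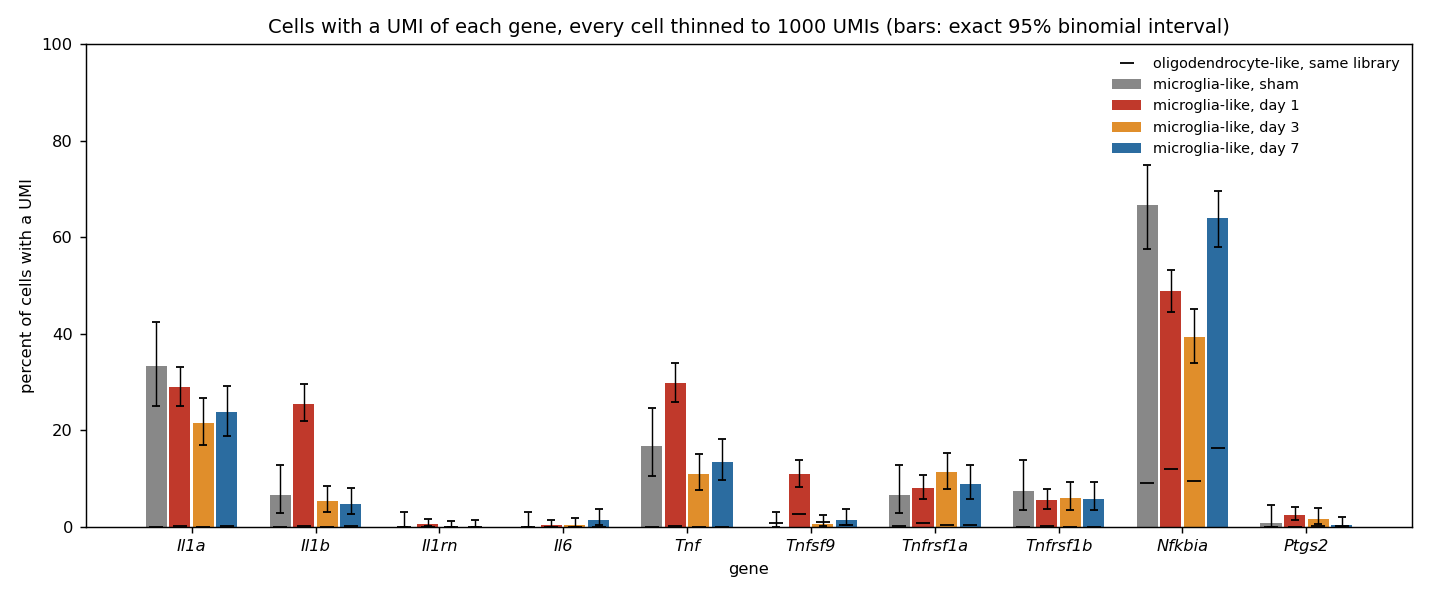
Percent of microglia-like cells with at least 1 UMI of each member after thinning to 1000 UMIs a cell, by library, with exact binomial 95% intervals. Il1b was found in 25.5% of day 1 cells and in 4.74% to 6.67% of the cells of the other libraries.

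In day 1 cells, Il1b, Tnf and Tnfsf9 were found more often where an Il1a UMI was also found. Among the 152 thinned day 1 microglia-like cells with an Il1a UMI, 53.9% (45.7 to 62.1) had Il1b, against 13.9% (10.6 to 17.9) of the 373 cells without it. Tnf was found in 57.9% against 18.2%, Tnfsf9 in 25.0% against 5.09%, and Nfkbia in 83.6% against 34.6%. Il1rn was found in 0 of the 152 cells and in 3 of the 373. The receptors did not follow the ligands: Tnfrsf1a was found in 9.21% against 7.51% and Tnfrsf1b in 5.26% against 5.63%. The other libraries had the same direction for Tnf and Il1b. Tnf was found in 35.0% of sham cells with Il1a against 7.5% of those without, in 27.7% against 6.33% on day 3 and in 33.8% against 7.18% on day 7. Il1b was found in 12.5% against 3.75%, 13.8% against 2.95% and 7.69% against 3.83%, from 3 to 9 cells each. The cells of 1 library are not replicates, and these shares describe the libraries only.

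Subclusters of the myeloid cells differed in their members' levels, and different subclusters held most microglia-like cells in different libraries. Subcluster M5, led by Il1a, Ccl4 and Tnf, had 177 cells on day 1 and 1, 10 and 2 in sham, day 3 and day 7. On day 1 it had 1938 CPM of Il1a, 1627 of Il1b, 1527 of Tnf, 355 of Tnfsf9 and 2734 of Nfkbia, but 4.81 of Il1rn. Subcluster M5 alone held 49.9% of all Il1a, 49.4% of all Tnf, 33.4% of all Tnfsf9 and 32.1% of all Il1b UMIs of the 4 libraries. The larger day 1 subcluster M1, led by Birc5, Npl and Ly86 and with 227 day 1 cells, had 173 CPM of Il1a, 125 of Il1b, 202 of Tnf and 432 of Nfkbia. The median depth differed alongside, at 7023 UMIs a cell in M5 and 5813 in M3 against 2017, 1176.5, 765.5 and 1889 in M0, M1, M2 and M4, and its part in these levels was not tested. The day 1 microglia-like class was therefore a mixture of cells with high and with low levels of the same cytokines.

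Subcluster M3, led by P2ry12, Cx3cr1 and Ccl3, had 43 sham, 90 day 3 and 106 day 7 cells but 6 on day 1. Its Il1a level was 1461 CPM in sham, 1154 on day 3 and 945 on day 7, its Il1b level was 256, 104 and 199 CPM, and its Nfkbia level was 5664, 1763 and 3625 CPM. Within these cells, too, Nfkbia was lowest on day 3. Of the 3 subclusters with at least 20 cells in every library, M2 had at most 1 Il1b UMI in any library. Subcluster M0, led by Lag3, Csf1r and Cx3cr1, had Il1b at 31.2 CPM in sham, 575 on day 1, 48.7 on day 3 and 73.5 on day 7. In M4, led by P2ry12, Siglech and Tmem119, Il1b stood at 10.4, 368, 19.0 and 14.8 CPM. Tnf in M0 was 41.5, 220, 58.4 and 77.3 CPM, and in M4 it was 93.4, 419, 38.0 and 312 CPM. Both subclusters had their highest Il1b and Tnf on day 1, although the sham values rested on 1 to 9 UMIs. Nfkbia did not have 1 direction within subclusters on day 1, at 1210 CPM against 1101 in sham in M0 and 449 against 1224 in M4.

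**Figure D5:**
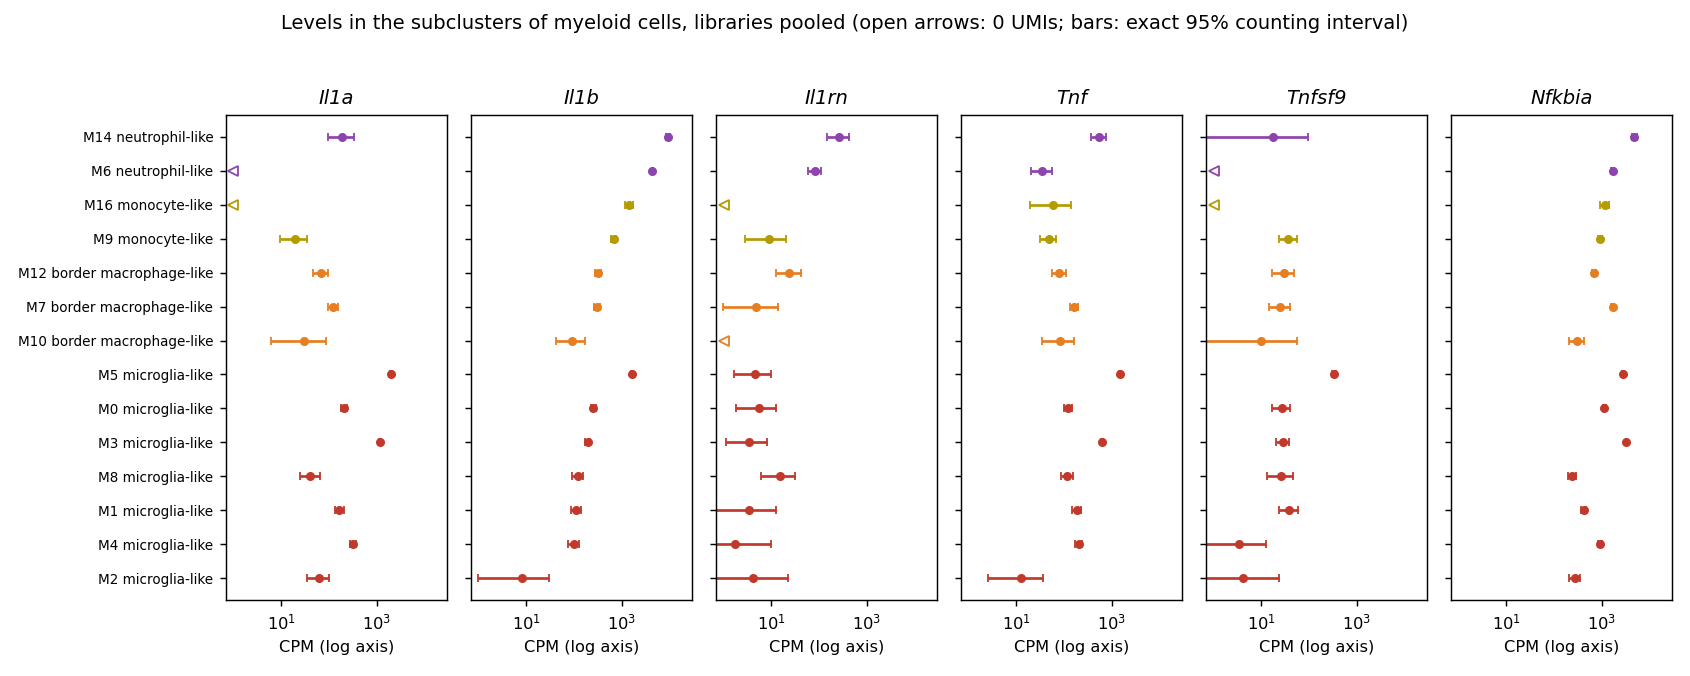
Levels of Il1a, Il1b, Il1rn, Tnf, Tnfsf9 and Nfkbia (CPM, log axis), libraries pooled. Shown are the microglia-like, border macrophage-like, monocyte-like and neutrophil-like subclusters. M5 had the highest Il1a, Tnf and Tnfsf9 levels among the microglia-like subclusters, and the neutrophil-like subclusters M6 and M14 had the highest Il1b and Il1rn.

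Neutrophil-like cells had the highest Il1b level of any class. It was 9119 CPM (8459 to 9817) in the 50 cells of day 1 and 4152 (3939 to 4374) in the 55 cells of day 3, and 3884 and 4845 CPM in the 16 sham and 24 day 7 cells. On day 1 their Il1b level was above that of microglia-like cells, at 959 (921 to 998), which was in turn above that of border macrophage-like cells, at 515 (462 to 572), and none of these intervals overlapped. Of all Il1b UMIs, neutrophil-like cells held 70.5% in sham, 18.8% on day 1, 71.0% on day 3 and 52.6% on day 7, while microglia-like cells held 20.9%, 64.0%, 14.0% and 19.3%. The larger holder of Il1b UMIs was thus the microglia-like class on day 1 and the neutrophil-like class in the other libraries. Il1rn in neutrophil-like cells was 149, 219, 64.3 and 92.5 CPM, from 8 to 22 UMIs, and for each UMI of Il1b there were 0.0385, 0.0240, 0.0155 and 0.0191 UMIs of Il1rn. The day 1 cells lay mainly in subcluster M14, led by Il1b, Il1r2 and Cxcl2, which had 41 cells, all of day 1, while M6 held all neutrophil-like cells of the other libraries. Tnf had 31 UMIs in day 1 neutrophil-like cells, all in M14, 18 on day 3, all in M6, at 400 and 52.6 CPM, and 0 in sham and on day 7. Ptgs2 was 164, 116, 35.1 and 312 CPM in neutrophil-like cells for sham and days 1, 3 and 7, from 11, 9, 12 and 27 UMIs. Nfkbia stood at 1942, 4166, 1617 and 1642 CPM in these cells, highest on day 1, where it was lower than sham in microglia-like cells. The 6 neutrophil markers took up 292237, 106267, 396042 and 298550 CPM of the neutrophil-like totals for sham and days 1, 3 and 7. The median depth was 1259 UMIs a cell in M14 and 4615.5 in M6. The part of these differences in the neutrophil-like levels, among them the day 1 levels of Il1b and Nfkbia, was not tested.

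Border macrophage-like cells, with 51 sham and 106 day 1 cells, had 3 of 8 members higher on day 1 and 1 lower, beside 14.8% and 14.1% of all genes. Il1b was at 32.1 CPM in sham and 515 on day 1, a ratio of 16 (7.69 to 40.2), Il1a at 41.3 and 127, a ratio of 3.07 (1.54 to 6.94), and Tnf at 78.0 and 166, a ratio of 2.12 (1.27 to 3.77). Nfkbia was lower, at 949 against 2069 CPM, a ratio of 0.458 (0.406 to 0.518). The directions of Il1b and Nfkbia were those of microglia-like cells. Subcluster M7, led by Mrc1, Ccl7 and Ccl8, had both libraries, with Il1b at 38.1 and 663 CPM and Nfkbia at 2433 and 1242 CPM. Il1rn had 0 UMIs in sham and 12 on day 1, of which 9 were in subcluster M12, with Gpnmb and Pf4 among its leading genes. Subcluster M12 had 0 sham and 49 day 1 cells, while M7 had 27 and 42. The part of this shift between subclusters in the ratios of the border macrophage-like class was not tested. In the 10, 20, 25 and 47 monocyte-like cells Il1b was 253, 835, 1500 and 530 CPM, and 20% to 70% of these cells had the same class from their own markers. Tnf was the only cytokine member with over 20 UMIs in T or NK-like cells of more than 1 library, at 183, 66.5, 190 and 105 CPM from 24, 8, 47 and 52 UMIs, of which the sham and day 1 values came from 26 and 37 cells.

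Among vessel cells, Ptgs2 of day 3 stood apart in endothelial-like cells. It stood at 29.2 CPM in sham, 54.1 on day 1, 221 on day 3 and 45.9 on day 7, from 430, 829, 3265 and 937 UMIs. The ratios were 1.85 (1.65 to 2.09), 7.58 (6.85 to 8.40) and 1.57 on days 1, 3 and 7. In the endothelial-like cluster led by Ackr1, a gene of venules, Lrg1 and Lcn2, Ptgs2 was 273, 345, 905 and 383 CPM. This cluster held 2243 of the 3265 day 3 UMIs, and Ptgs2 was itself among its leading genes. It had 234, 443, 658 and 483 cells for sham and days 1, 3 and 7. The other endothelial-like clusters with enough cells also had their highest Ptgs2 level on day 3. The cluster led by Ndnf, Slc16a1 and Hmcn1 had 16.5, 10.6, 116 and 20.4 CPM, and the cluster led by Gkn3, Egfl8 and Vegfc, genes of arteries, had 36.2, 30.3, 124 and 41.8 CPM. Microglia-like cells thus had their highest Ptgs2 level on day 1 and endothelial-like cells on day 3.

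Tnfrsf1a in endothelial-like cells was 82.4, 89.3, 180 and 66.4 CPM, a day 3 ratio of 2.19 (2.04 to 2.34). Tnfrsf1b stood at 17.3, 20.2, 29.0 and 24.9 CPM and Nfkbia at 1407, 1242, 1166 and 1779 CPM, all within 2-fold of sham. On day 3, 3 of 6 members were higher than in sham, Ptgs2, Tnfrsf1a and Tnf, beside 4.19% of all genes called higher and 4.8% called lower. On day 1 it was 3 of 7, Il1a, Il1b and Tnf, beside 7.01% higher and 3.52% lower, and on day 7 it was 1 of 6, Tnf, beside 4.24% and 2.25%. The levels of these 3 cytokine genes in endothelial-like cells were low. On day 1 Il1a was 4.24 CPM against 1.65 in oligodendrocyte-like cells, Il1b 2.81 against 3.80 and Tnf 6.66 against 2.23. On day 3 Tnf was 3.11 CPM, from 46 UMIs, against 0 UMIs in oligodendrocyte-like cells. The part of free RNA and of other cells in these levels was not tested.

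Fibroblast-like cells had Ptgs2 at 16.1, 141, 66.0 and 110 CPM, from 5, 163, 28 and 28 UMIs in 3, 36, 18 and 5 cells, with ratios of 8.77 (3.68 to 27.4), 4.10 (1.56 to 13.6) and 6.83 (2.60 to 22.6). Ptgs2 was the 1 member of 3 called higher on day 1 and on day 3, beside 7.37% of genes higher and 9.4% lower on day 1 and 7.7% and 6.25% on day 3. On day 7 Nfkbia joined it, at 679 against 332 CPM, beside 8.0% and 5.66%. The cluster led by Dcn, Slc7a11 and Lum held 152 of the 163 day 1 UMIs, at 286 CPM. About as many fibroblast-like cells had another class, or none, from their own markers as had the same one, and the endothelial markers summed to 2555, 1898, 4335 and 2711 CPM in the class. Their part in these values was not tested. In vascular smooth muscle-like cells Ptgs2 was 2.41, 18.2, 16.2 and 13.6 CPM, from 13, 79, 88 and 129 UMIs, with ratios of 7.53 (4.16 to 14.8), 6.70 (3.72 to 13.1) and 5.63 (3.18 to 10.9). The level in these cells was above 5-fold of sham in all 3 tMCAO libraries. The endothelial markers moved alongside, at 692, 3206, 1378 and 1480 CPM in these cells, and their part in the Ptgs2 values was not tested.

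In the pooled libraries Il6 was counted mainly in mural cells. In sham, with 11 Il6 UMIs in all, microglia-like cells held 5, vascular smooth muscle-like cells 4 and pericyte-like cells 1. In vascular smooth muscle-like cells it had 4, 31, 32 and 22 UMIs, or 0.742, 7.13, 5.88 and 2.31 CPM, with ratios of 9.61 (3.40 to 37.5), 7.92 (2.81 to 30.8) and 3.12 (1.06 to 12.5). The cluster led by Rrad, Rasl11a and Atcayos held 72 of their 89 Il6 UMIs. In pericyte-like cells Il6 had 1, 30, 16 and 7 UMIs, or 1.05, 23.0, 10.6 and 4.57 CPM, and the day 1 ratio to the single sham UMI was 22.0 with an interval from 3.65 to 896. Of these 54 UMIs, 52 lay in the cluster led by Ccl19, Ccl11 and Colec11, at 97.3 CPM on day 1, 65.9 on day 3 and 22.6 on day 7. In pericyte-like cells only the day 1 comparison reached 20 UMIs over both libraries. Vascular smooth muscle-like cells had 4 of 7 members higher on day 1, 2 of 5 on day 3 and 2 of 6 on day 7, and none lower, beside 9.81%, 2.96% and 8.23% of genes higher and 2.76%, 1.18% and 1.22% lower. The other 2 called on day 1, Il1b and Tnfrsf1b, had 20 UMIs each, or 4.6 CPM, after 1 and 5 in sham. That Il1b level was near the 3.80 CPM of oligodendrocyte-like cells, and the part of free RNA and of other cells in it was not tested. Tnfrsf1b, at 20.2 CPM in endothelial-like cells of day 1, moved with the endothelial markers given above, whose part was not tested. Pericyte-like cells had 2 of 4 members higher on day 1, Il6 and Tnfsf9, 1 of 4 on day 3, Ptgs2, and none of 2 on day 7, and none was lower, beside 4.58%, 3.94% and 7.53% of genes higher and 4.19%, 2.5% and 1.77% lower.

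Tnfsf9 was also counted in oligodendrocyte-like cells. They held 44.0% of its UMIs in sham, 28.6% on day 1, 31.0% on day 3 and 24.4% on day 7, while microglia-like cells held 8.8%, 52.5%, 14.5% and 15.4%, so microglia-like cells held more on day 1 and fewer in the other libraries. Vascular smooth muscle-like cells held 31, 50, 37 and 45 of its UMIs, more than either of these classes on day 7. In oligodendrocyte-like cells the level of Tnfsf9 was below that of microglia-like cells in each library. It stood at 9.83, 22.6, 8.43 and 4.27 CPM there, from 55, 274, 45 and 30 UMIs, and at 9.83, 9.72, 23.3 and 25.4 CPM in neuron-like cells, from 5, 20, 9 and 6. The ratios in oligodendrocyte-like cells were 2.30 (1.72 to 3.13) on day 1, 0.858 on day 3 and 0.434 (0.269 to 0.689) on day 7, so it was higher on day 1 and lower on day 7. Tnfrsf1a was at 0.715 CPM in sham, from 4 UMIs, and 8.83 on day 1, from 107, a ratio of 12.3 (4.68 to 46.1). The endothelial markers in these cells stood at 145 CPM in sham and 588, 282 and 251 on days 1, 3 and 7, and their part in the Tnfrsf1a values was not tested. With Il1a, Il1b and Tnf at the low levels given above, 5 of 6 members were called higher on day 1, beside 11% of genes higher and 2.39% lower. The calls of Il1a, Il1b and Tnf rested on 1.65, 3.80 and 2.23 CPM, and the part of free RNA and of other cells in them was not tested. On day 3, 1 of 3 was higher, Tnfrsf1a, beside 3.12% and 0.951% of genes, and on day 7, 1 of 3, Tnfrsf1a, was higher and 1, Tnfsf9, was lower, beside 7.85% and 1.62%.

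In neuron-like and astrocyte-like cells few members reached 20 UMIs. Neuron-like cells had 2 of 4 members higher on day 1, beside 13.2% of genes higher and 5.18% lower. Ptgs2, which excitatory neurons are known to induce with activity, had 0 UMIs in sham and 31 on day 1, at least 2.55-fold higher than the level of 3 UMIs, and Tnfrsf1a had 3 and 40 UMIs, a ratio of 3.30 (1.05 to 16.7). On day 3 and day 7 Nfkbia alone was measured there, at 1.14 and 2.07 times sham, beside 3.62% and 7.14% of genes higher and 11.5% and 13.9% lower. Different clusters held most of the class in different libraries: the cluster led by Snhg11, Calb2 and Meg3 had 99, 371, 42 and 18 cells for sham and days 1, 3 and 7, and the cluster led by Igfbpl1, Sox11 and Tubb2b had 50, 265, 57 and 69. The part of this shift in the neuron-like ratios was not tested. In astrocyte-like cells 0 of 2 members passed 2-fold on days 1 and 3, beside 11.4% and 7.08% of genes higher and 6.37% and 9.36% lower. On day 7 the 1 member measured, Nfkbia, was at 552 CPM against 145 in sham, a ratio of 3.80 (2.55 to 5.81), beside 7.47% and 4.94%. The 5 endothelial markers stood at 6187 CPM on day 7 against 3413 in sham in astrocyte-like cells and at 3045 against 1294 in neuron-like cells, and their part in the 2 Nfkbia values was not tested.

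The other genes of these pathways were described from lists chosen with earlier results of these data known, each read in microglia-like cells against the shares of all genes given above. Of 11 measured IL-1 signalling genes on day 1, 1 was higher, Pycard, an inflammasome adaptor, at 2.15 times sham, and none was lower. Of 12 TNF signalling genes 2 were higher, the kinase gene Map3k7 at 2.15 and Tnfaip2 at 2.17. Of 15 genes of NF-kB and its inhibitors 1 was higher, Bcl3 at 2.28, and 3 were lower, the subunit genes Relb at 0.442 and Rel at 0.447 and Ikbkg, which encodes the regulatory subunit of the IkB kinase, at 0.456. On day 1 the lower Nfkbia level thus stood beside lower levels of these 2 subunit genes. Of 10 NF-kB target genes 3 were higher, the mitochondrial superoxide dismutase gene Sod2 at 2.41, the survival gene Bcl2a1d at 3.58 and Clec4e at 4.35, the last from 1 sham UMI with an interval of 0.7 to 180. Of 6 IL-6 family genes 3 were lower, the receptor genes Il6ra at 0.317 and Il6st at 0.485 and the feedback inhibitor gene Socs3 at 0.4. On day 3 none of the IL-6 family and TNF signalling genes was called, and on day 7 none of the IL-6 family, NF-kB and inhibitor or NF-kB target genes. The calls of these 5 lists on day 3 were Bcl3, higher at 2.20, and Sigirr, Rel, Tnfaip3 and Gadd45b, lower at 0.489, 0.498, 0.459 and 0.418, and on day 7 they were Map3k7, higher at 2.69, and Casp1, lower at 0.485. Rel was thus lower and Bcl3 higher on both day 1 and day 3. Of 7 prostaglandin genes 2 were higher and 2 lower on day 1. Ptgs1, which encodes the constitutive cyclooxygenase, was at 0.410 on day 1 and was not called on days 3 and 7. Pla2g4a, which encodes the phospholipase that releases arachidonic acid, was at 2.34, 2.34 and 2.28 times sham on days 1, 3 and 7. Ptger4, which encodes a receptor of prostaglandin E2, was at 12.2, 11.7 and 14.4 times a sham level that rested on 1 UMI, with a day 1 interval of 2.11 to 491. Hpgd, which encodes a prostaglandin-degrading enzyme, was at 0.265, 0.436 and 0.481, so it was lower on all 3 days, while Ptgs2 was higher on day 1.

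Across 50 class-by-library points, which here included 10 of the choroid plexus-like, ependymal-like and erythrocyte-like classes, the log2 levels of the members were compared with those of 13829 genes with at least 200 UMIs. The points share 4 libraries and their depths, so the coefficients are descriptions. Among the members, Tnf and Tnfrsf1b (Pearson r = 0.868), Il1a and Tnf (0.860) and Il1b and Il1rn (0.859) were the most alike pairs, while Ptgs2 and Il6 were unlike (-0.02). The genes most like Il1a were Fam167b (0.977), Havcr2 (0.972) and Bcl2a1a (0.958), and those most like Tnf were Bcl2a1b (0.968), Ccl3 (0.961) and Susd3 (0.96). Il1b was most like Pilra (0.948), and Il1rn was most like Clec4e (0.974). Ptgs2 was most like Fxyd5 (0.801), and Nfkbia was most like Mcl1 (0.925). Il6 and Tnfsf9 had no gene above 0.779 and 0.732. Over the other 40 points, an alternative chosen after seeing the data, 7 of the 10 members had the same nearest gene. The nearest gene of Il1b was then Fcgr4 (0.96) beside Pilra (0.959), that of Tnfrsf1a was Tap2 (0.866) and that of Tnfrsf1b was Inpp5d (0.936), and Tnf and Tnfrsf1b stood at 0.886.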

How the data were processed

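Single cells of the operated-side hemisphere were profiled by 3′ droplet RNA-seq in 4 libraries, sham and days 1, 3 and 7 after tMCAO. The authors deposited UMI counts as a filtered matrix of whole numbers for each library. The submitters' processing notes name Cell Ranger 3.0.1, Seurat 4.1.2 and a human build. The headers of the deposited counts name Cell Ranger 4.0.0 and the gene identifiers are those of mouse, so the version and the annotation used are not settled. Cell classes were rebuilt from the counts.

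The filter stated in the study's methods (200 to 3000 detected genes, mitochondrial share up to 10%) left 44360 of 59429 cells, fewer than the total stated there. With up to 6000 genes 10193, 16714, 11298 and 16549 cells remained, nearer to the stated numbers for sham and days 1, 3 and 7. The cause of the difference is not known. The 44360 cells were log-normalised, integrated by canonical correlation (Seurat 5.3.0, R 4.3.3) over 2000 variable genes and 30 dimensions, and clustered at resolution 1. The members and the pathway genes were left out of the variable genes, and 47 of them had been among the candidates. The 35 clusters were named from marker genes, at least 3 of them found in 10% of cells, and the myeloid cells were clustered again. Clusters that met no naming rule were left unnamed. UMIs were then summed per class and library in Python 3.11.15. Classes of at least 50 cells in both libraries were compared with sham by the CPM ratio, with exact 95% Poisson or binomial intervals (scipy 1.17.1), and groups at 0 were set against a floor of 3 UMIs. PCR duplicates were removed by UMI, and the intervals cover counting error only. No test was made, since each group held 1 library, and in a class summed over cells a higher CPM does not separate more cells with a transcript from more transcript in each cell. Genes were named as the members, the pathway lists and, for each member, the 3 genes nearest in pattern, with log2(CPM + 5) as the level. The members and lists were chosen with earlier results of these data known.

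The alternatives were cells of up to 6000 genes, at most 5% mitochondrial UMIs, clustering without integration and classes called cell by cell from markers. Others were another total, the mean of per-cell CPM, no UMI minimum, subtraction of the level of oligodendrocyte-like cells and thinning to 500 UMIs. For the pattern correlations 3 classes were left out. Leaving out the 5% of cells with the highest Scrublet score was added after seeing the data. The scripts for levels and ratios were tested on simulated data. Doublets were scored with Scrublet in scanpy 1.11.5 but, outside that alternative, no cells were removed by this score. The members' sequences came from RefSeq.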

Additional observations from a re-analysis of the deposited data

How the results depend on the processing

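With 1 library a group, no paired analysis was possible because each group held a single replicate, and no replicate could be left out. Of 216 ratios to sham of members in microglia-like cells under 8 alternatives, 194 stayed within the counting interval of the reported value, 22 moved outside it and none of those called past 2-fold changed direction. The count of members higher on day 1 was 3 or 4 under the alternatives run, with Tnf joining when cells were called from their markers and taking the place of Ptgs2 under the mean of per-cell CPM. The count of members lower on day 1 was 1 as reported, 0 with the total taken without mitochondrial and ribosomal protein genes and Gm42418, 0 as the mean of per-cell CPM and 2 with no minimum of UMIs. On day 3 the count lower was 1, and 2 with no minimum. On day 7 it was 0, and 1 with at most 5% mitochondrial UMIs, 1 without the 5% of cells with the highest Scrublet score (chosen after seeing the data) and 1 with no minimum. Tnf was the member in the first 2 of these. The added counts without a minimum rest on members with under 20 UMIs, and the cause of the others was not tested. Admitting cells of up to 6000 genes, which raised the microglia-like class to 165, 869, 480 and 404 cells, gave 9 of the 22 moved ratios. The day 1 ratio of Il1b ranged from 4.56 to 9.47, that of Tnf from 1.61 to 2.69, that of Nfkbia from 0.439 to 0.625 and that of Tnfsf9 from 7.85 to 14.5, and 15.7 with the level of oligodendrocyte-like cells subtracted, which is no background for this gene. The planned removal of Scrublet doublets was not run, because its automatic threshold marked 0.225%, 4.61%, 0.032% and 0.0142% of the cells. Depth limits Il1rn and Il6, with 115 and 184 UMIs in all.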
